A study of Mus musculus with 4 samples.

Results

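The 10 genes described here encode feedback inhibitors and subunits of the transcription factor NF-kB and receptors that feed into it, out of 55357 genes in the deposited tables. They were taken by symbol, and all 10 were found: Nfkbia, Nfkbiz, Bcl3, Tnfaip3, Relb, Nfkb1, Nfkb2, Cd14, Tlr4 and Il1r1. The members were chosen by their CPM differences in the comparison of Diabetic with Control endothelial cells, with sums over the other cell classes also in view. All differences between Diabetic and Control are therefore given as a description, without p-values per gene. Nothing is read from how many members differed. The study compared retinas of mice labelled Control (in the labels, Ctrl) with retinas of mice labelled Diabetic, with 2 single-cell libraries in each group. Cells had been enriched with beads against CD31, a surface protein of endothelial cells, and read as 3' tags on the 10x platform. The labels gave no strain, age, sex, way of inducing diabetes, duration of disease or number of animals per library. Nor did they state that replicate libraries were from different animals, so every error and p-value below measures the spread between these libraries, which may be technical.

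NF-kB is a family of dimeric transcription factors held in the cytoplasm by IkB proteins until a signal such as bacterial lipopolysaccharide or a cytokine releases it. Among its first targets are genes that shut it off again, which makes their transcripts a common readout of the pathway. Nfkbia encodes the inhibitor IkB-alpha, Tnfaip3 a ubiquitin-editing enzyme that dampens signalling upstream of NF-kB, and Nfkbiz and Bcl3 nuclear IkB proteins that alter which targets are transcribed. Nfkb1, Nfkb2 and Relb encode subunits, the last 2 of the slower alternative arm. CD14 passes lipopolysaccharide to the receptor TLR4, and Il1r1 encodes the signalling receptor of the cytokine interleukin-1. In vessels, the same pathway is known to switch on adhesion molecules that let leukocytes leave venules.

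RefSeq start-site windows of GRCm38.p6 (250 bases before to 50 after a start) were available for 5 of the 10 members, as 9 windows. The kappaB decamer consensus was searched by name on both strands, with no other motif. It was matched in 7 of these 9 windows and in 2779 of 32851 windows of all genes (8.46%), and a match describes letters only. Overlapping windows of Nfkb2 counted the same site again (chr19:46305695-46305724), so the windows are not independent and nothing is read from these shares. The whole 250 bases before the Nfkbia start (chr12:55492648-55492897, minus strand) are shown because Nfkbia was the member whose level exceeded that of every other class in endothelial cells of all 4 libraries. The sites of Bcl3 (chr7:19822734-19822763, minus strand), Nfkb2 (chr19:46304688-46304717, plus strand) and Tnfaip3 (chr10:19015403-19015432, minus strand) are 30-base stretches around a match, shown to set members that behaved differently side by side. Capitals mark the matched decamer, and all are written 5' to 3' on the gene's strand.
Nfkbia: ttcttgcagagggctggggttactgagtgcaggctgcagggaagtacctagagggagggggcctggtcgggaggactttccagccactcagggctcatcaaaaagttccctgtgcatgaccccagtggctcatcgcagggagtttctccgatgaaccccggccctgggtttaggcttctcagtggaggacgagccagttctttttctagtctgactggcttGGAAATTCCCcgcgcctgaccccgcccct
Bcl3: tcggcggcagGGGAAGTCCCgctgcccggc
Nfkb2: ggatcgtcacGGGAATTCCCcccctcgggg
Tnfaip3: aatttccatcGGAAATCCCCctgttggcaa
The Nfkbia match lay 29 to 20 bases before the start, that of Nfkb2 39 to 30 bases before it and that of Tnfaip3 12 to 3 bases before it. The Nfkb2 window shown held 3 matches in all, of which 2 overlapped, and the Tnfaip3 window shown held 2. The Bcl3 match lay 2 to 11 bases after the RefSeq start.

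In the GRCm38 annotation all of these are protein-coding genes, and 3' tags do not tell their exons apart. Nfkbia (ENSMUSG00000021025) spans positions 55489410 to 55492647 of chromosome 12, Bcl3 (ENSMUSG00000053175) 19808462 to 19822770 of chromosome 7 and Tnfaip3 (ENSMUSG00000019850) 19000910 to 19015657 of chromosome 10. Relb (ENSMUSG00000002983) lies on the same chromosome 7 from 19606217 to 19629438. Il1r1 (ENSMUSG00000026072) spans 40225080 to 40317257 of chromosome 1 and Nfkbiz (ENSMUSG00000035356) 55811375 to 55838899 of chromosome 16.

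After filtering, the libraries held between 2390 and 7393 cells. Cells were put into classes by marker genes that include no member, and 12.9% to 17.2% of cells fitted no class. Although the label of every sample was CD31+ cell, rods outnumbered endothelial cells in every library: Control 1 held 776 endothelial cells and 3513 rods, Control 2 held 349 and 1293, Diabetic 1 held 1741 and 3628, and Diabetic 2 held 814 and 1626. The 7 classes that reached 20 cells in each of the libraries were endothelial cells, mural cells (pericytes and smooth muscle), microglia, rods, cones, bipolar cells and Müller glia. Pairs of libraries shared 5 to 9 cell barcodes. The groups also differed in quality measures: the median mitochondrial share of endothelial cells was 5.84% and 5.26% in Control and 2.86% and 3.60% in Diabetic, and the 10 neutrophil markers together had 0 and 0.408 CPM in Control endothelial cells against 31.3 and 20.4 CPM in Diabetic ones. Diabetic 1 stood apart in erythrocyte markers, with 5265 CPM in its endothelial cells where Control 1 had 1167, Control 2 had 58.7 and Diabetic 2 had 77.5 CPM. The part of these shifts in the results was not tested. CPM is a gene's unique molecular identifiers (UMIs) per 1000000 UMIs, after adding up all cells of that class within 1 library.

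The members differed in which class had their highest level, counted as CPM and not as total UMIs. By mean CPM over the 4 libraries, Nfkbia, Bcl3, Relb and Il1r1 were highest in endothelial cells, Nfkbiz, Cd14, Tlr4, Nfkb1 and Nfkb2 in microglia, and Tnfaip3 in rods. The microglial values of Nfkb2 rested on 6 UMIs in Control and 4 in Diabetic, and those of Tlr4 on 8 and 6. Only Nfkbia, Nfkbiz, Cd14 and Tnfaip3 had a leading class whose range lay clear of the next. Differences between a class and endothelial cells were tested in 1 edgeR fit over all classes with the library as a block. In that fit 7 members had enough UMIs, while Bcl3, Nfkb2 and Tlr4 did not.

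**Figure D1:**
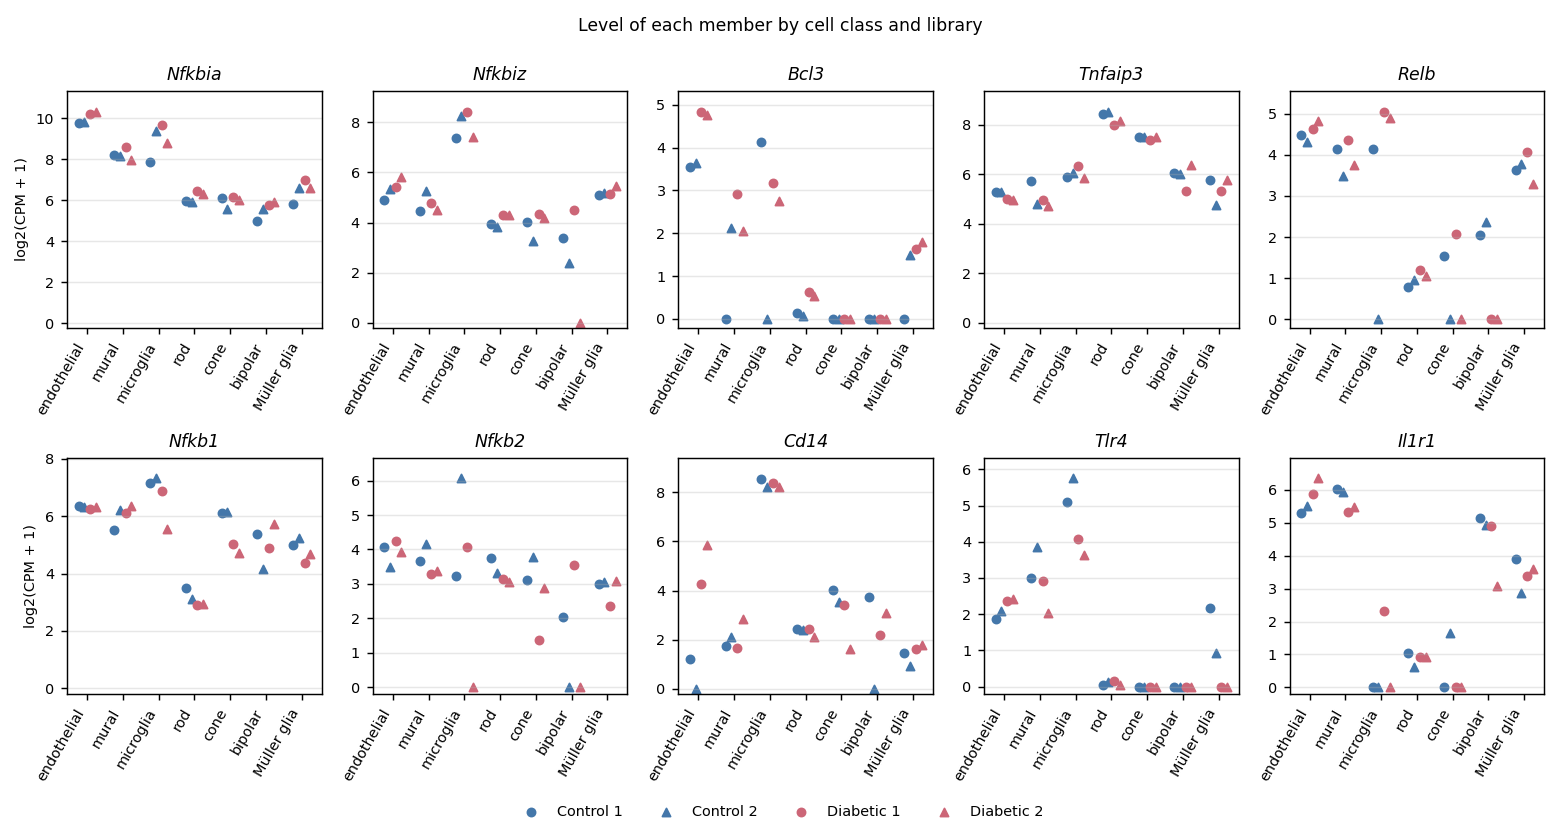
Level of each of the 10 genes by cell class, as log2(CPM + 1), with 1 point per library (blue Control, red Diabetic; circles replicate 1, triangles replicate 2). Nfkbia stands highest in endothelial cells, Tnfaip3 in rods and Cd14 in microglia, and the scale of the vertical axis differs between panels.

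Nfkbia ranged from 863 to 1249 CPM in endothelial cells of the 4 libraries, above its range in microglia (233 to 822 CPM), mural cells (247 to 386 CPM) and every other class. Its levels in Müller glia (55.9 to 128 CPM), rods (58.9 to 85.8 CPM), cones (47.2 to 71.7 CPM) and bipolar cells (31.2 to 59.3 CPM) overlapped. Against endothelial cells the log2 difference was -0.80 ± 0.17 (SE) in microglia (edgeR adjusted p = 0.000174), -1.86 ± 0.16 in mural cells (1.41e-12) and -3.94 ± 0.16 in rods (1.09e-24). In Control 1 and Control 2, endothelial markers stood at 3090 and 3051 CPM in mural cells and 16072 and 16763 CPM in endothelial cells. Mural markers in the same libraries stood at 4191 and 4069 CPM in endothelial cells and 28713 and 30875 CPM in mural cells. The part of this mixed RNA in the mural differences was not tested. The other nuclear or cytoplasmic inhibitors had their own order. Nfkbiz was at 166 to 339 CPM in microglia, above its range of 28.9 to 56.2 CPM in endothelial cells, and the log2 difference was 2.74 ± 0.20 (edgeR adjusted p = 1.3e-14). Bcl3 was at 10.6 to 27.5 CPM in endothelial cells, which overlapped its range in microglia of 0 to 16.6 CPM (2, 0, 2 and 1 UMIs), and it had no UMI in cones or bipolar cells.

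Tnfaip3 was led by photoreceptors instead of vessel cells. Its level was 350, 364, 255 and 285 CPM in rods of Control 1, Control 2, Diabetic 1 and Diabetic 2. Cones had 167 to 182 CPM, below all 4 rod values and above every other class, and endothelial cells had 29.7 to 38.5 CPM, which overlapped mural cells at 25.0 to 51.9 CPM. The log2 difference to endothelial cells was 3.14 ± 0.10 in rods (edgeR adjusted p = 1.08e-27), 2.20 ± 0.14 in cones (9.23e-18), 1.23 ± 0.29 in microglia (0.000687) and 0.60 ± 0.24 in bipolar cells (0.0318). The last was lost without Control 1, Control 2 or Diabetic 2, and that of microglia without Diabetic 1. A Tnfaip3 UMI was found in 64.2%, 69.3%, 57.9% and 67.6% of rods in the same order of libraries, and in 16.6%, 18.6%, 11.8% and 14.0% of endothelial cells. With each cell thinned to 1000 UMIs the shares were 26.6%, 29.8%, 20.5% and 23.1% of rods and 5.04%, 3.45%, 3.08% and 3.05% of endothelial cells. Median depths were 3839, 5242, 3599 and 6243 UMIs per rod and 3390, 4717, 3323 and 4776 UMIs per endothelial cell. Cells with fewer than 1000 UMIs, left out of the thinned shares, were 399, 134, 485 and 96 rods and 62, 30, 149 and 59 endothelial cells. Rod RNA was present in the endothelial cells: 7 rod markers together stood at 8.93%, 5.22%, 8.44% and 5.37% of their level in rods, and Tnfaip3 stood at 11%, 10.4%, 12% and 10.4% of its level in rods. How much of the endothelial Tnfaip3 came from rods was not tested.

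Among the subunits, Nfkb1 was at 75.7 to 80.4 CPM in endothelial cells, 45.9 to 159 CPM in microglia and 44.8 to 81.3 CPM in mural cells, and these ranges overlapped. Rods were lowest at 6.52 to 10.3 CPM (log2 difference to endothelial cells -3.41 ± 0.14, edgeR adjusted p = 5.4e-24). Relb was at 18.8 to 27.4 CPM in endothelial cells and 0.710 to 1.30 CPM in rods, a log2 difference of -4.55 ± 0.23 (2.89e-21). Nfkb2 overlapped between all neighbours in the order of classes, with 10.2 to 18.0 CPM in endothelial cells and 7.31 to 12.5 CPM in rods.

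The receptors were spread over different cells. Cd14 was at 291 to 374 CPM in microglia of all 4 libraries, above every other class, with a log2 difference to endothelial cells of 4.36 ± 0.47 (edgeR adjusted p = 2.89e-10). Tlr4 was highest in microglia at 11.5 to 52.9 CPM, which overlapped mural cells at 3.13 to 13.5 CPM, and had no UMI in cones or bipolar cells. Il1r1 was shared by endothelial cells (38.5 to 80.5 CPM) and mural cells (39.3 to 63.6 CPM). In microglia it had 1 UMI in 1 of the 4 libraries, a log2 difference of -4.92 ± 0.85 to endothelial cells (7.09e-06).

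Over the 7 members tested for level, 7 differed from endothelial cells in rods (82.9% of 10761 genes did), 6 in cones (70.1%) and 6 in bipolar cells (58.9%). The counts were 6 in microglia (36.2% of genes), 5 in Müller glia (66.9%) and 2 in mural cells (31.5%). The median log2 difference of these members was -3.41 in rods (0.16 over all genes), -1.64 in cones (-0.06), -1.63 in bipolar cells (-0.02), -1.60 in Müller glia (0.05), -0.67 in mural cells (-0.01) and 0.65 in microglia (-0.21). The rod difference of Cd14 (-2.04) lay in the Diabetic libraries: in Control, rods had 4.48 and 4.24 CPM against 1.33 and 0 CPM in endothelial cells. Without Diabetic 2 it was -0.81 and was no longer called. In mural cells the second call, that of Nfkbiz (-0.75 ± 0.28), was lost without Control 1, Diabetic 1 or Diabetic 2, and without Control 2 a call of Cd14 was added (-2.94). In microglia the call of Nfkb1 (0.65 ± 0.26) was lost without Control 1, Control 2 or Diabetic 1.

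In endothelial cells as a whole, the values that chose the list were as follows. Cd14 had 5 and 0 UMIs in Control 1 and Control 2 (1.33 and 0 CPM) and 150 and 317 UMIs in Diabetic 1 and Diabetic 2 (18.4 and 57.1 CPM). Bcl3 was at 10.6 and 11.4 CPM in Control against 27.5 and 25.9 CPM in Diabetic. Nfkbia was at 863 and 911 CPM in Control against 1176 and 1249 CPM in Diabetic. Both Diabetic libraries lay above both Control libraries for these 3 genes, and the Cd14 values of the Diabetic libraries were far apart from each other. The fitted log2 fold changes were 5.47 ± 0.93 (SE, 2 libraries per group) for Cd14, 1.29 ± 0.18 for Bcl3 and 0.45 ± 0.09 for Nfkbia. The Cd14 value depends on the few Control UMIs: it was 10.61 without Control 1, where the remaining Control library had none.

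Il1r1 was at 38.5 and 44.4 CPM in Control against 57.8 and 80.5 CPM in Diabetic endothelial cells, a log2 fold change of 0.74 ± 0.18. Nfkbiz was at 28.9 and 39.5 CPM and at 42.3 and 56.2 CPM (0.54 ± 0.19). Relb (0.33 ± 0.17) and Tlr4 (0.54 ± 0.38) also had both Diabetic values above both Control values, Tlr4 with 10 and 8 UMIs in Control and 34 and 24 in Diabetic. Tnfaip3 went the other way, at 38.5 and 37.9 CPM in Control against 30.7 and 29.7 CPM in Diabetic (-0.34 ± 0.13). The part of rod RNA in the Tnfaip3 differences of endothelial cells and their subtypes was not tested. Nfkb1 differed little, at 80.4 and 79.5 CPM against 75.7 and 78.9 CPM (-0.05 ± 0.09), and the values of Nfkb2 overlapped between the groups (0.27 ± 0.23). The edgeR fit called 3 of the 10 members (adjusted p under 0.05), Cd14, Bcl3 and Nfkbia, all higher, where 3.51% of 12882 genes were called (2.27% higher and 1.23% lower). The median log2 fold change was 0.49 over the members and -0.00 over all genes. Cd14 passed the filter on low counts only through the Diabetic libraries. When all cells with a neutrophil or microglial marker UMI were left out, the same 3 members were called, Cd14 at 4.26, Bcl3 at 1.32 and Nfkbia at 0.40, where 2.61% of 11925 genes were. Both counts rest on the comparison that chose the list, so nothing is read from them. Leaving out Diabetic 2 ended the call of Nfkbia (0.39), and leaving out Diabetic 1 added calls of Il1r1 (0.98) and Nfkbiz (0.75).

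**Figure D2:**
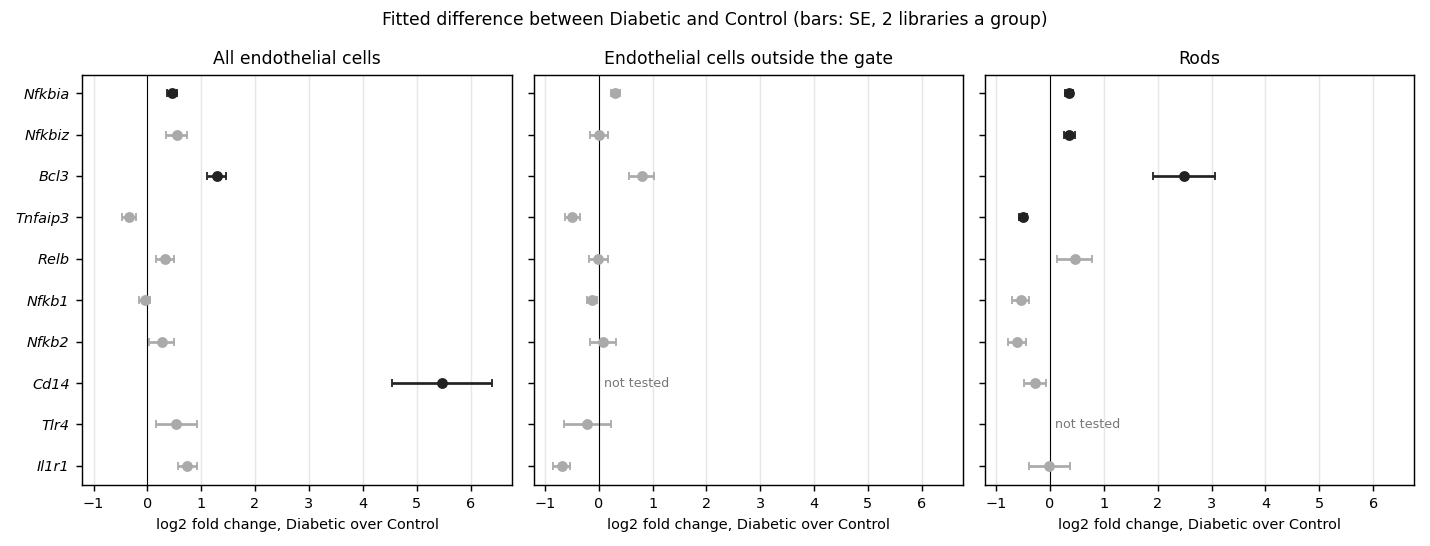
Fitted log2 fold change, Diabetic over Control, of each member in all endothelial cells, in endothelial cells outside the inflamed venular gate and in rods, with bars for the SE (2 libraries per group). Black points passed the edgeR threshold over all genes of that fit and grey points did not; Cd14 reached 5.47 in all endothelial cells and had too few UMIs to be tested outside the gate.

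Endothelial cells were split along the vessel tree by marker genes into arterial cells (43, 26, 76 and 42 in Control 1, Control 2, Diabetic 1 and Diabetic 2), capillary cells (579, 257, 1038 and 500) and venous cells (89, 38, 340 and 196). The differences of Cd14, Bcl3 and Nfkbiz had larger values in venous than in capillary cells, and that contrast was not tested. Cd14 had no UMI in venous cells of either Control library and 133 and 311 UMIs in the Diabetic libraries (50.9 and 140 CPM), at least 38.5-fold higher against a floor of 3 counts over the Control group. With Diabetic 1 alone the bound was 21.3-fold and with Diabetic 2 alone 58.7-fold. Bcl3 was at 10.9 and 15.3 CPM in Control against 39.0 and 40.6 CPM in Diabetic venous cells (log2 fold change 1.67 ± 0.32). Nfkbiz was at 24.5 and 34.4 CPM in Control against 60.9 and 82.0 CPM in Diabetic venous cells (1.35 ± 0.27). In each case the groups did not overlap. Tnfaip3 was at 35.4 and 19.1 CPM in Control against 37.5 and 37.4 CPM in Diabetic venous cells (0.43 ± 0.28). Il1r1 stood high in venous cells of both groups, at 106 and 107 CPM in Control against 130 and 169 CPM in Diabetic. In capillary cells of the 4 libraries it was at 20.4 to 27.8 CPM. Of the 9 members tested in venous cells 3 were called, Cd14, Bcl3 and Nfkbiz, where 3.55% of 10435 genes were called. Cd14, with no Control UMI there, passed the filter on low counts only through the Diabetic libraries, and nothing is read from these calls. Without Control 1 only Cd14 was still called, with Bcl3 at 1.42 and Nfkbiz at 1.09, and DESeq2 also called Cd14 alone.

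In capillary cells, the most numerous subtype, Bcl3 was at 9.86 and 10.9 CPM in Control against 20.1 and 16.9 CPM in Diabetic (0.83 ± 0.25). Tnfaip3 was at 39.5 and 44.1 CPM in Control against 27.1 and 24.3 CPM in Diabetic (-0.71 ± 0.17). Cd14 had 5 and 0 UMIs in Control against 13 and 5 UMIs in Diabetic capillary cells. None of the 8 members tested there was called by edgeR or DESeq2, where edgeR called 1.48% of 11792 genes. An unadjusted p under 0.05 was reached by 3 members. Nothing is read from that count, as the share of all genes at that threshold is not given. Arterial cells had enough UMIs for 3 members, and Nfkbia was called among them (1.70% of 5013 genes were). It was at 665 and 608 CPM in Control against 937 and 1335 CPM in Diabetic arterial cells (0.83 ± 0.19), and the call was lost without Diabetic 2 (0.55).

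**Figure D3:**
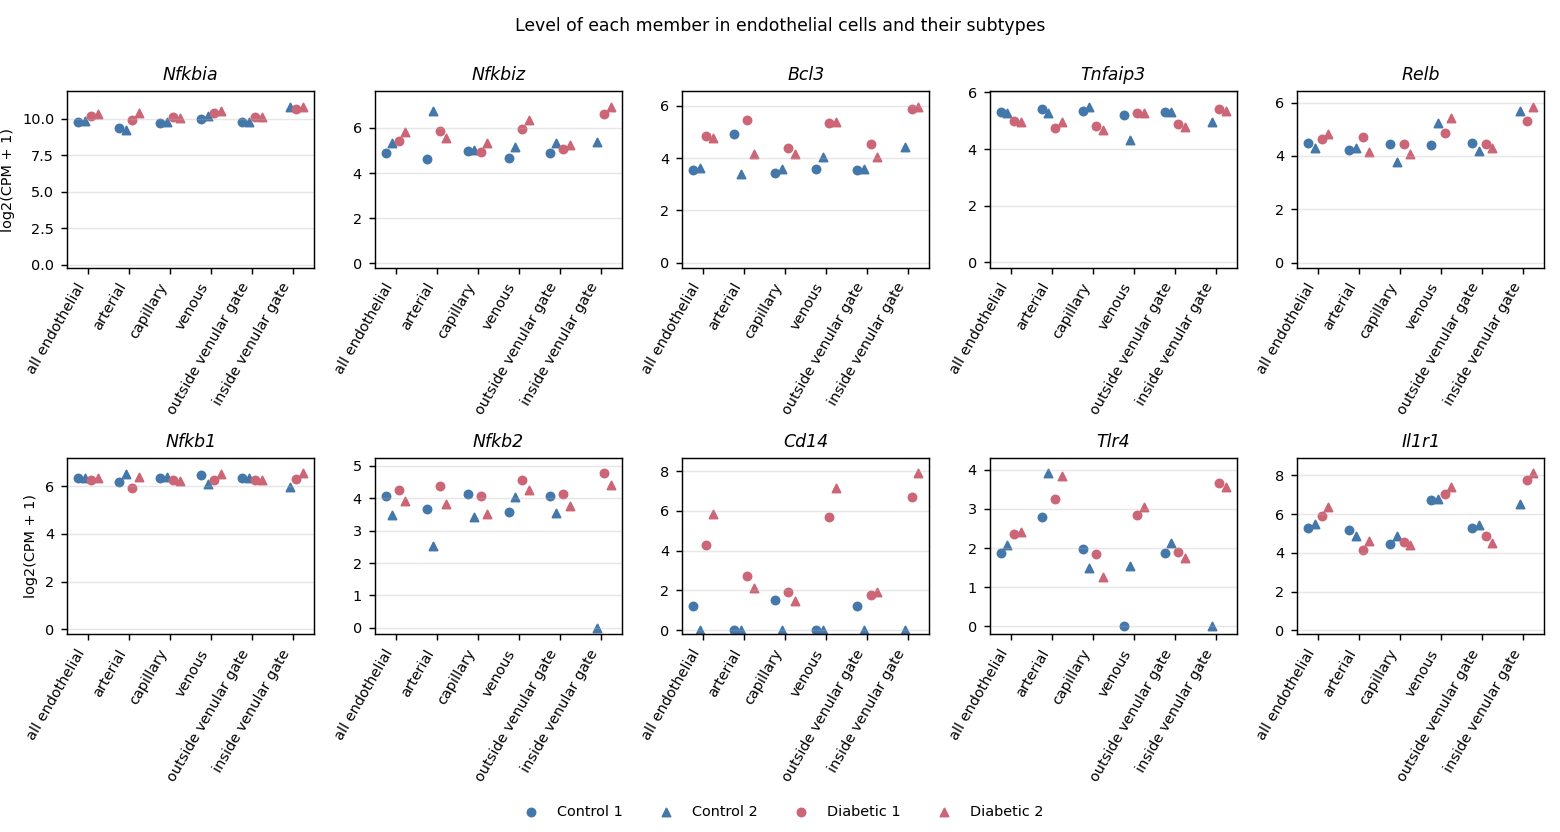
Level of each member as log2(CPM + 1) in all endothelial cells, in the 3 subtypes and outside and inside the inflamed venular gate, with 1 point per library (colours and shapes by library as in the legend). Cd14 and Il1r1 stand highest inside the gate, where Control 1 had no cell and Control 2 had 3.

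A small set of cells held most of the Cd14 and Il1r1 UMIs found in Diabetic endothelial cells. Cells with at least 3 UMIs from at least 2 of Lcn2, Ackr1, Lrg1, Sele and Selp, genes known from inflamed venules and none of them a member, are called the inflamed venular gate. These genes were already known to be higher in the Diabetic libraries, so the number of gated cells is no finding: 0 and 3 in Control and 137 and 83 in Diabetic. A further 2, 1, 87 and 62 cells in library order lay 1 UMI under the gate. The gate held 8.61% of the Diabetic endothelial cells and 18.7% of their UMIs. It held 93.8% of their Cd14 UMIs, 68.9% of Il1r1, 50% of Tlr4, 42.9% of Nfkbiz and 41.2% of Bcl3. The shares were 35.7% for Relb, 26.5% for Nfkb2, 26.4% for Nfkbia, 25.2% for Tnfaip3 and 20.7% for Nfkb1, the member closest to the share of all UMIs.

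**Figure D4:**
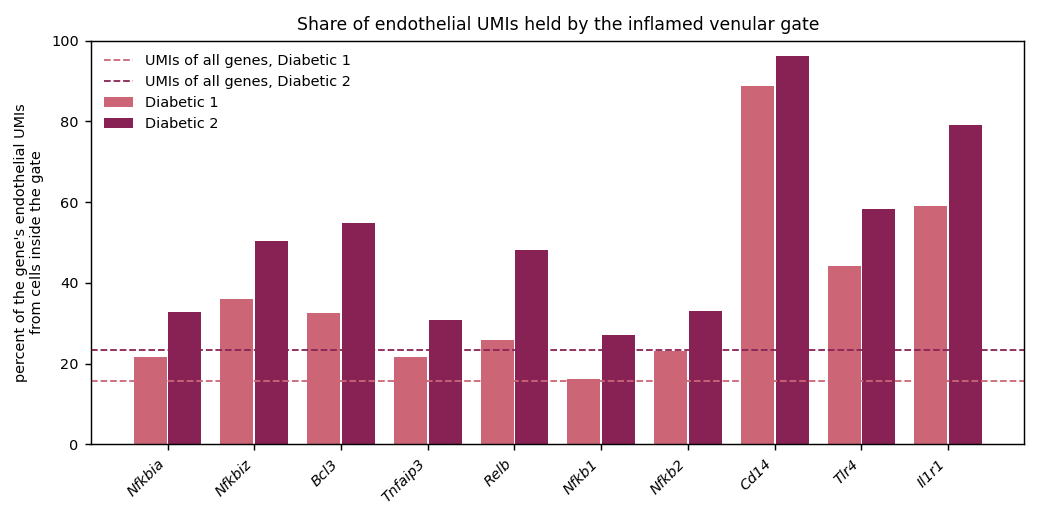
Percent of each member's UMIs in Diabetic endothelial cells that came from cells inside the inflamed venular gate, for the 2 Diabetic libraries; the dashed lines give the share of UMIs of all genes, 15.7% in Diabetic 1 and 23.3% in Diabetic 2. Cd14 reached 88.7% and 96.2%, and Nfkb1 lay near the lines.

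Inside the gate Cd14 was at 104 and 236 CPM in Diabetic 1 and Diabetic 2 and outside it at 2.47 and 2.82 CPM. Il1r1 was at 218 and 274 CPM inside and at 28.0 and 21.8 CPM outside. Nfkbiz was at 97.6 and 122 CPM inside and at 32.1 and 36.4 CPM outside. For each of these genes both libraries were higher inside. The log2 differences, inside over outside with the library as a block, were 5.99 ± 0.19 for Cd14, 3.37 ± 0.13 for Il1r1, 2.23 ± 0.42 for Tlr4, 1.78 ± 0.13 for Nfkbiz and 1.76 ± 0.19 for Bcl3. They were 1.37 ± 0.21 for Relb, 0.80 ± 0.24 for Nfkb2, 0.75 ± 0.05 for Nfkbia and 0.67 ± 0.19 for Tnfaip3. That of Nfkb1 was 0.29 ± 0.12. The gated cells are almost all Diabetic and hold most of the Cd14 and Il1r1 UMIs by which the list was chosen, so these differences are a description and no p-value is given. By the same threshold 9 of 10 members passed as higher, all but Nfkb1, where 9.91% of 11885 genes did (5.73% were lower), and nothing is read from that count. The fit rests on 2 libraries with 1 degree of freedom left per gene.

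Gated cells were deeper than the others, with a median of 8602 and 13169 UMIs against 3172 and 4466. Against other endothelial cells with at least 5000 UMIs Cd14 was at 6.67 and Il1r1 at 3.15, and 9 members passed the threshold as higher, as 9.77% of 11368 genes did. Against venous cells outside the gate 7 did (7.22% of 10020 genes): Tnfaip3 (0.51) and Nfkb2 (0.43) did not, and Cd14 was at 5.93 and Il1r1 at 2.66. Endothelial markers stood at 12649 and 12980 CPM inside the gate and at 16640 and 16812 CPM outside it. The 10 neutrophil markers were at 32.0 and 14.7 CPM inside and at 31.2 and 22.1 CPM outside, and the 10 microglial markers at 67.1 and 51.9 CPM inside and at 55.1 and 37.6 CPM outside. When gated cells with any UMI of these 20 genes were removed, 72 and 39 cells remained with Cd14 at 138 and 121 CPM (log2 difference 5.73), and 7 members passed, without Tnfaip3 and Nfkb2 (5.75% of 11494 genes were higher).

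The Cd14 UMIs came from few cells. In Diabetic 1, 48 of 1741 endothelial cells had a Cd14 UMI (2.76%, 95% exact interval 2.04% to 3.64%), and 31 of the 48 were inside the gate. In Diabetic 2 they were 36 of 814 (4.42%, 3.12% to 6.07%), of which 24 were inside. Control 1 had 5 such cells of 776 (0.644%) with 1 UMI each, and Control 2 had 0 of 349, which allows a share of up to 0.860% by 3 counts of the total (exact upper bound 1.05%). These limit cells with a UMI at this depth, not cells expressing the gene. The highest single cells held 19 and 66 Cd14 UMIs, and the 5 highest cells of each Diabetic library held 39.3% and 69.7% of its endothelial Cd14 UMIs. For Il1r1 the 5 highest cells held 12.7% and 28.9%. Of the Cd14-positive cells, 12 of 48 and 9 of 36 also had a neutrophil marker UMI, where 21.9% and 21.7% of all gated cells and 11.7% and 12.04% of the other endothelial cells had one.

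Shares of cells with a Cd14 UMI are not read as a difference here, because rods, with 3.28 to 4.48 CPM of Cd14, had such a UMI in 4.78%, 5.88%, 3.72% and 4.80% of cells. After thinning every cell to 1000 UMIs the shares were 0.140%, 0%, 0.565% and 1.46% of endothelial cells and 0.482%, 0.345%, 0.445% and 0.131% of rods. Microglia had a Cd14 UMI in 43.2%, 50%, 61.1% and 50% of their cells. Microglial markers in endothelial cells stood at 0.10%, 0.155%, 0.177% and 0.107% of their level in microglia, and Cd14 at 0.355%, 0%, 5.61% and 19.1%. Intervals and limits cover counting error only.

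Outside the gate none of the 9 members with enough UMIs was called between Diabetic and Control endothelial cells by edgeR or DESeq2, where edgeR called 1.56% of 12577 genes. Of these members 4 had an unadjusted p under 0.05, and nothing is read from that count without the share of all genes at that threshold. The log2 fold changes were 0.80 ± 0.24 for Bcl3, 0.31 ± 0.08 for Nfkbia, 0.00 ± 0.17 for Nfkbiz, -0.49 ± 0.13 for Tnfaip3 and -0.69 ± 0.16 for Il1r1, with a median of -0.01 over the members and 0.00 over all genes. Il1r1 was called lower without Diabetic 1 (-0.89) and with the stricter cell filter (-0.71), and with no filter on low counts Il1r1 (-0.67), Nfkbia (0.33) and Bcl3 (0.82) were called. With the replicate number as a block, Nfkbia (0.31), Bcl3 (0.81), Tnfaip3 (-0.49) and Il1r1 (-0.68) were called. Cd14 had 17 and 12 UMIs left in the Diabetic libraries against 5 and 0 in Control. Bcl3 was at 10.6 and 11 CPM in Control against 22.1 and 15.3 CPM in Diabetic cells outside the gate, and Nfkbia at 863 and 874 CPM and at 1091 and 1093 CPM, so both genes still had no overlap between groups. In venous cells outside the gate Il1r1 was at 106 and 105 CPM in Control against 47.6 and 32.5 CPM in Diabetic, and it was the only one of 8 members called (-1.37 ± 0.22), where 1.51% of 9034 genes were. By its construction the gate took venous cells almost only from the Diabetic libraries: 89, 36, 243 and 126 venous cells were left in Control 1, Control 2, Diabetic 1 and Diabetic 2. Gated cells held 59.1% and 79.2% of the endothelial Il1r1 UMIs of Diabetic 1 and Diabetic 2. Nothing is therefore read from the lower Il1r1 values outside the gate.

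Rods, the most numerous class, were tested in the same way. The members were chosen with earlier results of these data known. Calls for Diabetic against Control in rods and the other classes are therefore a description and not independent evidence, and no p-value per gene is given. Bcl3, Nfkbia and Nfkbiz rose in Diabetic rods and Tnfaip3 fell, so 4 of the 9 members tested were called, where 12.5% of 17131 genes were called (6.64% higher and 5.82% lower). Tnfaip3 was at 350 and 364 CPM in Control against 255 and 285 CPM in Diabetic rods, from 7726 to 14271 UMIs per library. The groups did not overlap (log2 fold change -0.50 ± 0.08). Nfkbia was at 61.9 and 58.9 CPM in Control against 85.8 and 78.5 CPM in Diabetic rods (0.35 ± 0.07). Nfkbiz was at 14.2 and 13.0 CPM in Control and at 18.7 CPM in both Diabetic libraries (0.36 ± 0.10). Bcl3 had 4 and 1 UMIs in Control against 20 and 12 UMIs in Diabetic rods (2.49 ± 0.58), under 1 CPM throughout. It passed the filter on low counts only through the Diabetic libraries, so nothing is read from its call. The members' median was -0.01, against 0.00 over all genes. The 7 rod markers together stood at 50338 and 52354 CPM in Control against 44707 and 44149 CPM in Diabetic rods, and the median mitochondrial share of rods was 3.23% and 2.89% in Control, 1.74% and 2.18% in Diabetic. Their part in the rod values was not tested.

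Tnfaip3 was called in rods whichever library was left out, and the other rod calls depended on single libraries. Without Diabetic 1 the only call left was Tnfaip3, with Nfkbia at 0.27, and without Diabetic 2 the calls of Bcl3 and Nfkbiz were lost. Without Control 2 those 2 calls were lost as well, and Nfkb1 (-0.73) and Nfkb2 (-0.82) were called lower. DESeq2 called 2 members, and without doublet removal edgeR also called 2. RNA of other classes was present in rods: 10 endothelial markers stood at 1.06%, 0.470%, 1.25% and 0.915% of their endothelial level, Nfkbia at 7.17%, 6.47%, 7.30% and 6.29%, and Bcl3 at 0.923%, 0.413%, 1.97% and 1.71%. The 10 neutrophil markers were at 1.32 and 2.12 CPM in Control against 41.4 and 21.3 CPM in Diabetic rods. In the 22 and 6 cells gated as neutrophils in the Diabetic libraries, Bcl3 was at 72.9 and 81.8 CPM and Cd14 at 451 and 180 CPM, with no test. The part of this RNA in the rod values was not tested.

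No member was called in the other 5 classes by edgeR or DESeq2. In microglia 4 members were tested (0.385% of 2336 genes were called), and Cd14 was at 374 and 291 CPM in Control against 327 and 298 CPM in Diabetic, with overlap and a log2 fold change of -0.05 ± 0.28. In mural cells 4 were tested (0.0762% of 6563 genes), with Il1r1 at 63.6 and 60.7 CPM in Control against 39.3 and 43.8 CPM in Diabetic (-0.66 ± 0.33, not called). Cones (3 members tested, 0.097% of genes called), bipolar cells (3, 0.215%) and Müller glia (6, 0.512%) gave no call either. In cones Nfkb1 was at 68.7 and 70.7 CPM in Control against 31.8 and 25.4 CPM in Diabetic (-1.30 ± 0.29, not called). At an unadjusted p under 0.05 there was 1 member in cones, 1 in Müller glia and 0 in mural cells, microglia and bipolar cells. The share of all genes at that threshold is not given, so nothing is read from these counts. These classes held 20 to 354 cells per library, and the SE of the members' log2 fold changes there ran from 0.17 to 0.58. Without Control 2, Nfkbia was called in Müller glia (1.04).

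The difference in effect between classes was fitted as an interaction in 1 fit over all classes. The endothelial side of each difference is the one by which the members were chosen, so no p-value is given. Cd14 was the only member called in the fit over all 4 libraries. Its log2 fold change minus that in endothelial cells was -5.64 ± 0.66 in rods, -5.27 ± 0.75 in microglia and -6.47 ± 1.24 in cones. The call in cones was lost without Control 1 (-11.27), Control 2 (-5.96) or Diabetic 2 (-4.95), and without Control 2 a call of Nfkb1 was added in rods (-0.65). The share of 11879 genes called was 1.25% for rods, 0.0842% for microglia and 0.0589% for cones. For mural cells, bipolar cells and Müller glia 0 of 9 members were called by edgeR (0.0505%, 0.0337% and 0.488% of genes were). At an unadjusted p under 0.05 there were 2, 1 and 2 members, and nothing is read from these counts without the share of all genes. The opposite signs of Tnfaip3 and Nfkbia in endothelial cells were also present in rods, and the interaction of neither gene was called (-0.14 ± 0.19 and -0.09 ± 0.27). Rod RNA was present in the endothelial cells, and its part in the endothelial Tnfaip3 difference was not tested.

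Of 72 further genes of the pathway (ligands, receptors, adapters and kinases, subunits and inhibitors, and ubiquitin and RNA regulators), 52 were tested in endothelial cells. Tnfrsf1a, the main receptor of TNF, was at 45.1 and 60.7 CPM in Control against 84.5 and 91.0 CPM in Diabetic (log2 fold change 0.75 ± 0.14). Zfp36, which speeds the decay of cytokine mRNAs, was at 379 and 430 CPM and at 589 and 666 CPM (0.63 ± 0.11). Chuk, a kinase that marks IkB proteins for degradation, was at 46.2 and 56.7 CPM and at 34.3 and 33.0 CPM (-0.60 ± 0.13). These were the only calls of the 52, 2 higher and 1 lower, where 2.27% of all genes were higher and 1.23% lower. The median was 0.22 over the 52 and -0.00 over all genes. By role, the calls were 1 of 11 receptors, 1 of 21 adapters and kinases, 1 of 13 regulators, and 0 of 3 ligands and 0 of 4 subunits and inhibitors. Outside the gate Zfp36 alone was called (0.52).

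Inside the gate against the other Diabetic endothelial cells, 15 of 51 tested genes of this list were higher and 2 lower. Over all 11885 genes of that fit the shares were 9.91% and 5.73%. By role, 6 of 13 ubiquitin and RNA regulators, 4 of 21 adapters and kinases, 4 of 10 receptors and co-receptors and 1 of 4 subunits and inhibitors were higher. Chosen after its values were seen, Lbp, which carries lipopolysaccharide to CD14, was at 32.8 and 65.1 CPM inside and 1.16 and 1.17 CPM outside (5.35 ± 0.32). Ly96, the co-receptor of TLR4, was at 7.02 and 10.1 CPM inside and 5.08 and 6.57 CPM outside. Also picked from their values, the inhibitor Nfkbie was the one higher among its group (2.14 ± 0.53), and the lower ones were the receptor Cd40 (-1.67 ± 0.33) and the ligand Tnfsf12 (-0.38 ± 0.13). In rods 53 genes of the list were tested and 7 called, 4 higher and 3 lower, a share close to the 12.5% of all genes in rods. They were named after their values were seen. Il1b (5.56 ± 0.70), Ticam1 (1.08 ± 0.26), Tnfaip8 (0.89 ± 0.16) and Zfp36 (0.67 ± 0.16) rose, and Tnfsf12 (-0.44 ± 0.11), Chuk (-0.35 ± 0.09) and Ikbkg (-0.28 ± 0.07) fell. Il1b, an interleukin-1 ligand, was at 0.0245 and 0 CPM in Control against 0.866 and 1.14 CPM in Diabetic rods, beside the neutrophil marker levels given for rods. Its fold change rests on almost no Control UMIs, and it passed the filter on low counts only through the Diabetic libraries.

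The genes whose pattern over 28 class and library values was most like that of a member were listed by Pearson's r of log2(CPM + 1) among the 8057 genes whose average reached 20 CPM, as a description. The 28 values come from 4 libraries and share their depth and free RNA. For Nfkbia they were H2-D1 (0.97), Tsc22d3 (0.96) and Fli1 (0.96), and for Il1r1 the collagen genes Col4a1 (0.94) and Col4a2 (0.93) and the transcription factor gene Tcf4 (0.93). Cd14 was most like Tyrobp (0.89), Apbb1ip and Ly86 (0.88 each), and Tlr4 most like Cebpa (0.94), Cap1 and Cmtm7 (0.93 each). Tnfaip3 was most like Suv39h2 (0.94), Plagl2 and Prph2 (0.93 each), the last a gene of photoreceptor outer segments. For Nfkbiz they included Ifngr1 (0.93) and Il17ra (0.91), for Bcl3 Map3k11 (0.88), Akr1a1 (0.86) and Isg15 (0.85), and for Relb Tcim, Myo1e (0.90 each) and Isg15 (0.89). Nfkb1 was most like Egr1 (0.82), Pdia3 (0.81) and Spata13 (0.79), and Nfkb2 most like Hspa1a (0.82), Rnf215 and Fam53a (0.75 each).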

How the data were processed

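Single-cell RNA was read from 4 libraries of mouse retina, 2 Control and 2 Diabetic, after enrichment on beads against CD31. Cell Ranger 7.0.0 made the deposited UMI count matrices, per the file headers, and the submitters' processing notes name STAR 2.7.10b and mm10. The deposited counts were whole numbers, from 29792902 to 58792636 UMIs and 3091 to 7991 barcodes per library. The 10 members and all gene lists were chosen with earlier results of these data known. The rule for names was all 10 members, genes of the wider pathway list called in all endothelial cells (other calls as counts), and the 3 most alike genes per member, 1 of which is not reported here.

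Barcodes needed at least 500 UMIs and 300 genes, with no more than 20% of UMIs mitochondrial, and the top doublet scores (0.8% per 1000 barcodes) were removed from every library. A cell took the class with the highest relative marker level (at least 0.15, the next at most 0.5 of it, at least 2 markers detected). These limits were set after seeing numbers of cells, not the members' values. UMIs were summed per class and library and tested with edgeR 4.0.16 (quasi-likelihood, TMM scaling, R 4.3.3), with Benjamini-Hochberg adjustment over all genes of the class and a threshold of 0.05. The fit was tested on simulated counts. DESeq2 1.42.0, no filter, stricter cell filters, no doublet removal, Leiden clusters (scanpy 1.11.5), another gate and each library left out were tried as alternatives. Neutrophils had too few cells to be tested.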

Additional observations from a re-analysis of the deposited data

Results flagged for a closer look

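Cd14 was flagged because its interaction term in the edgeR fit over all classes passed the threshold for microglia, rods and cones, which is given as a description. Relative to endothelial cells the log2 fold change was -5.27 in microglia, -5.64 in rods and -6.47 in cones. Microglia had 45 and 22 Cd14 UMIs in Control and 82 and 52 in Diabetic, rods 183 and 90 against 162 and 89, and cones 8 and 5 against 6 and 1. The endothelial side had 5 and 0 against 150 and 317 UMIs, and it is the comparison by which Cd14 was chosen, so the difference is no independent evidence.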

How the results depend on the processing

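No called value changed direction under the alternatives run. Of the comparisons of single members, 1090 kept their side of the threshold, 42 passed it only under an alternative and 37 passed it only in the reported fit. The number of members called went from 3 to 5 in endothelial cells with no filter on low counts, to 5 with the replicate number as a block, to 0 without the inflamed venular gate, and to 2 to 5 with single libraries left out. In rods it went from 4 to 2 with DESeq2, to 2 without doublet removal, to 3 with the stricter cell filter (Nfkbiz lost), to 6 both with no filter and with the block (Nfkb1 and Nfkb2 added as lower) and to 1 to 4 with libraries left out. Cones went from 0 to 1 with no filter, 1 with the block and 2 with Leiden clusters. Capillary cells went from 0 to 2 with no filter, 3 with the block and 0 to 1 with libraries left out. Venous cells went from 3 to 5 with no filter, 5 with the block, 1 with DESeq2 and 1 to 3 with libraries left out. Endothelial cells outside the gate went from 0 to 3 with no filter, 4 with the block (Nfkbia and Bcl3 higher, Tnfaip3 and Il1r1 lower), 1 with the stricter cell filter and 0 to 1 with libraries left out. With libraries left out, the counts were also 0 to 1 in Müller glia, 0 to 1 in arterial cells, 1 to 3 for the mural level, 1 to 2 for the rod interaction and 0 to 1 for the cone interaction. Where a lone library was left in a group, it was assumed to vary like the other group, and the cause of these shifts was not tested. The share of all genes called under each alternative is not given. Calls gained or lost by members are therefore not set apart from a general shift in calls, and nothing is read from them.

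The labels do not say that replicate numbers pair the libraries, and with 2 pairs the data could not settle it: the deviations of Control 1 and Diabetic 1 from their group means correlated at 0.24 across 12882 genes, which are not independent. With cells thinned to 1000 UMIs, cells with a Cd14 UMI were 0.140%, 0.565% and 1.46% of endothelial cells in Control 1, Diabetic 1 and Diabetic 2 and 0.482%, 0.345%, 0.445% and 0.131% of rods. Those with a Tnfaip3 UMI were 5.04%, 3.45%, 3.08% and 3.05% of endothelial cells and 26.6%, 29.8%, 20.5% and 23.1% of rods. Bipolar cells gave no value with Leiden clusters or the stricter filter, nor did microglia with the latter. Leaving a library out of the gate comparison was not run, since no residual degree of freedom would be left.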
